A study of Orbilia oligospora with 12 samples.

Results

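The fungus Arthrobotrys oligospora lives in soil and traps nematodes with adhesive hyphal networks. Its genome annotation names a MADS box or an SRF-type domain in 3 of 11479 genes, and those 3 MADS-box transcription factor genes are described here across all libraries. They were picked from the annotation columns alone, not from expression. AOL_s00078g125 matches yeast SMP1 in Swiss-Prot and RLM1 in KEGG, and is called here the RLM1-type gene. AOL_s00112g128 matches Candida MCM1 in Swiss-Prot and is called the MCM1-type gene, although KEGG gives it the RLM1 entry as well. AOL_s00088g15 carries only the Pfam SRF-type domain and has no Swiss-Prot or KEGG match. Their coding lengths were 1701, 678 and 576 bases, or 566, 225 and 191 codons without the stop. All 3 passed the filter on low values (at least 1 TPM, a transcript level corrected for gene length and library size, in at least 3 libraries), as did 9355 genes in all.

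RNA-seq libraries of hyphae came from the wild type and from a strain labelled ΔAorlmA, each sampled at 0 h and 48 h of trap induction with nematode extract after 5 days on potato dextrose agar at 28 °C. There were 3 libraries in each of the 4 groups, 12 in all, and every library carries the same treatment label, those of 0 h included. The labels do not say how many transformants stand behind that strain, nor whether the 3 libraries of a group were grown apart, so p-values measure only the spread between these libraries, which may be technical. The series sets out to ask what the MADS-box factor AoRLMA does in hyphal growth, sporulation, wall integrity and pathogenicity. The labels leave the identity of the strain unsettled: the growth protocol names another deletion strain (ΔAosnf1), and the 3 labelled libraries of 48 h share a single description. The titles of the labelled libraries begin with A125, the number that ends the name of AOL_s00078g125.

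MADS-box proteins bind DNA as dimers through a short conserved domain that they share with animal serum response factor, and fungi carry a few of them. In budding yeast Rlm1 is phosphorylated by the MAP kinase Slt2 at the end of the cell wall integrity cascade, in which surface sensors act through protein kinase C and a relay of MAP kinases, and it raises genes of wall synthesis. Smp1 is a close relative with a part in osmotic stress. Mcm1 is the essential yeast member, and together with partner proteins it sets mating, cell cycle and arginine genes.

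Between 48.5 and 61.1 M clean reads were obtained per library. The steps of the lowest values correspond to an estimated 12.6 to 15.7 M assigned fragments per library. The median gene itself moved between groups on the TPM scale: its log2(TPM + 1) was 0.56 lower in the labelled strain at 0 h (value -0.556), and the other comparisons had medians of -0.111 (strain, 48 h), -0.249 (time, wild type) and 0.142 (time, labelled strain). After median-of-ratios scaling, which makes libraries comparable through their median gene, these medians lay between -0.06 and 0.007. At 0 h the share of genes called higher or lower in the labelled strain was 8.87% and 33.8% on TPM, and 14.3% and 11.0% after that scaling. Both scalings are therefore given where they differ. The first library of either time labelled ΔAorlmA was known from earlier results of these data to stand apart, and counts are also given without both.

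The gene closest to the name in the genotype, which gives no locus, was examined first. The RLM1-type gene was present in every library labelled ΔAorlmA and its level there was higher than in the wild type. In the wild type it had 38.47, 39.99 and 30.25 TPM at 0 h, followed by 32.31, 45.1 and 27.94 TPM at 48 h. The labelled strain had 72.19, 115.85 and 163.76 TPM at 0 h, followed by 108.6, 96.92 and 87.26 TPM at 48 h. The highest wild-type library (45.1 TPM) therefore lay below the lowest labelled library (72.19 TPM), and the strains did not overlap at either time. Within the labelled strain the 0 h libraries spread the most, with a coefficient of variation of 39.1% against 14.5% in the wild type at 0 h, while the median gene had 37.92% and 20.35%. The deposited values give 1 number per gene and do not show whether a part of its transcript was missing in the labelled libraries.

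**Figure D1:**
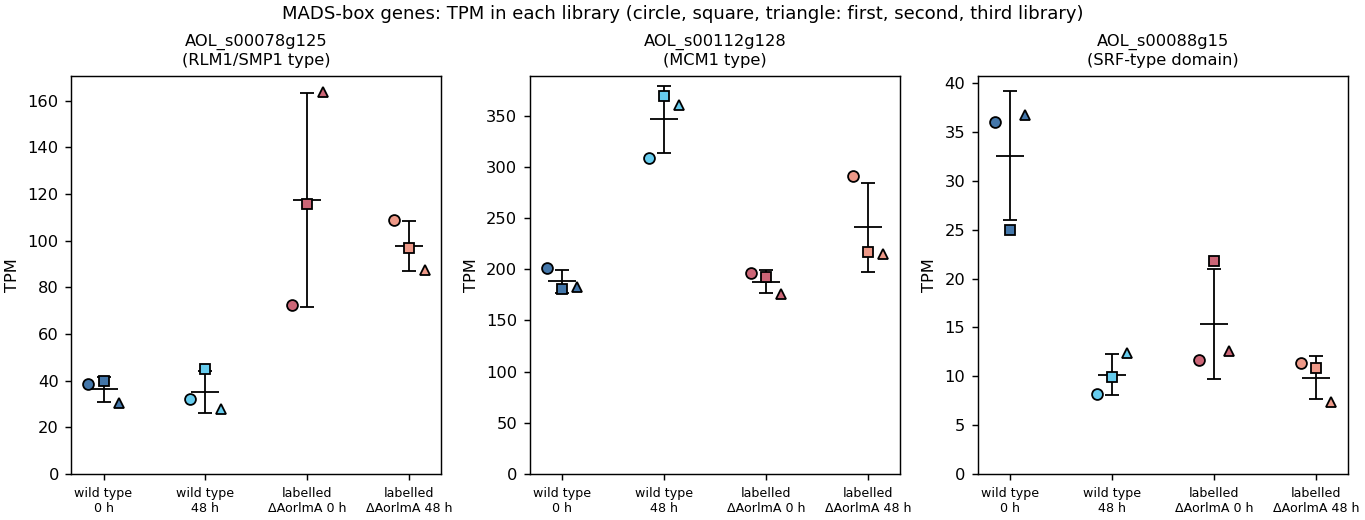
TPM of the 3 MADS-box genes in each of the 12 libraries, by group, on a linear axis from 0; circles, squares and triangles are the first, the second and the third library of a group, and the bars are the mean and SD (n = 3). The RLM1-type gene separates the strains at both times, the MCM1-type gene is highest in the wild type at 48 h (309.16 to 369.28 TPM), and AOL_s00088g15 is highest in the wild type at 0 h (24.96 to 36.76 TPM).

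These levels rest on an estimated 734 to 4751 fragments of the RLM1-type gene per library, a counting error of 1.45% to 3.69%, below the 10.9% or more by which the libraries of a group varied. It ranked between the percentiles 48.9 and 62.1 of the tested genes in wild-type libraries and between 76.1 and 88.9 in the labelled ones. In bulk RNA, more RNA per cell and more cells that express a gene cannot be told apart, which holds for all values given here. The difference at 0 h was 1.60 on the log2(TPM + 1) scale (SE 0.31, 95% interval 0.94 to 2.26, limma adjusted p = 0.00298) and at 48 h 1.47 (SE 0.31, 0.81 to 2.13, adjusted p = 0.0092), about 3.03-fold and 2.77-fold on that scale. After median-of-ratios scaling they were 2.15 and 1.61, so the scaling enlarged both. An exact permutation test of the strain difference within both times (400 arrangements, two-sided) gave p = 0.005, the smallest it allows, in a family of 6 such tests on the 3 genes (strain and time for each). With 3 libraries against 3 at a single time the smallest exact p is 0.1.

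Over 48 h of induction the RLM1-type gene showed no change that passed the test in either strain. Its difference was -0.06 in the wild type (95% interval -0.72 to 0.60, limma adjusted p = 0.882) and -0.19 in the labelled strain (-0.85 to 0.47, adjusted p = 0.677). The exact permutation test of time within both strains gave p = 0.55. The sign in the wild type turned under median-of-ratios scaling (0.17), so no direction is given. The authors' deposited table lists the gene as up in the labelled strain at both times and as not changed over time in either strain.

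The MCM1-type gene was the most abundant of the family, and it rose over the induction in the wild type. The wild type had 201.55, 181.1 and 182.45 TPM at 0 h, followed by 309.16, 369.28 and 360.99 TPM at 48 h. The labelled strain had 196.14, 192.14 and 175.51 TPM at 0 h, followed by 291.18, 217.0 and 214.52 TPM at 48 h. At 0 h the strains overlapped, while all 48 h libraries of either strain lay above all 0 h libraries. At 48 h every labelled library lay below every wild-type one, the first (291.18 TPM) being the nearest to the wild type.

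In the wild type the rise was 0.87 on the log2 scale (SE 0.21, 95% interval 0.42 to 1.33, limma adjusted p = 0.00507), about 1.83-fold, and 1.11 after median-of-ratios scaling. In the labelled strain the same comparison gave 0.34 (SE 0.21, -0.11 to 0.80, adjusted p = 0.247), which did not pass. The difference between these 2 changes, the interaction, was -0.53 (-1.17 to 0.11, adjusted p = 0.286), so a weaker rise in the labelled strain was not established; after median-of-ratios scaling it was -0.94 (adjusted p = 0.097). The exact permutation test of time within both strains gave 0.61 with p = 0.005, the smallest possible, and that of the strain within both times gave -0.27 with p = 0.065 (0.08 with p = 0.645 after median-of-ratios scaling).

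Between the strains the MCM1-type gene had a difference of -0.00 at 0 h (95% interval -0.46 to 0.45, limma adjusted p = 0.991) and -0.53 at 48 h (-0.98 to -0.08, adjusted p = 0.0791). The first turned positive after median-of-ratios scaling (0.55, adjusted p = 0.0691) and has no direction. The second did not pass either, but it did without the first labelled library of 48 h (-0.68, adjusted p = 0.0262). The gene stayed among the most abundant of the transcriptome throughout, between the percentiles 89.4 and 95.5, and its libraries of a group varied by 5.82% to 18.1%, below the median gene of each group. An estimated 1442 to 3374 fragments stand behind each value. In the authors' deposited table its only call is up over time in the wild type.

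AOL_s00088g15 was the least abundant member, and it fell over the induction in the wild type. There it had 35.98, 24.96 and 36.76 TPM at 0 h, followed by 8.2, 9.9 and 12.4 TPM at 48 h. The labelled strain had 11.67, 21.77 and 12.59 TPM at 0 h, followed by 11.36, 10.83 and 7.37 TPM at 48 h. All 0 h wild-type libraries lay above all others, and the remaining 3 groups overlapped in turn: the 48 h groups overlapped each other, and the first labelled library of 0 h (11.67 TPM) fell inside the range of the wild type at 48 h. With an estimated 43 to 255 fragments per library its counting error was 6.26% to 15.3%, while its libraries of a group varied by 20.3% to 36.4%.

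The fall in the wild type was -1.59 on the log2 scale (SE 0.32, 95% interval -2.28 to -0.90, limma adjusted p = 0.00181), to about 0.333 of the starting level, and it held after median-of-ratios scaling (-1.35, adjusted p = 0.00455). In the labelled strain the change was -0.56 (-1.25 to 0.13, adjusted p = 0.217). The interaction was 1.02 (95% interval 0.05 to 2, limma adjusted p = 0.182), which did not pass over all genes tested. The exact permutation test of time within both strains gave -1.07 with p = 0.005, and that of the strain within both times -0.56 with p = 0.065 (-0.23 with p = 0.32 after median-of-ratios scaling).

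At 0 h the gene was lower in the labelled strain by -1.07 (SE 0.32, 95% interval -1.76 to -0.38, limma adjusted p = 0.0189). That call does not survive several settings: it was -0.54 (adjusted p = 0.221) after median-of-ratios scaling, and the adjusted p was 0.0569 without the first wild-type library, 0.0732 without the third and 0.063 without the third labelled library of 0 h. The median of all genes at 0 h was itself -0.556. At 48 h the strains overlapped (-0.04, -0.73 to 0.65, adjusted p = 0.934, and 0.09 after median-of-ratios scaling). The authors' deposited table calls the gene down over time in the wild type and calls neither strain difference.

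**Figure D2:**
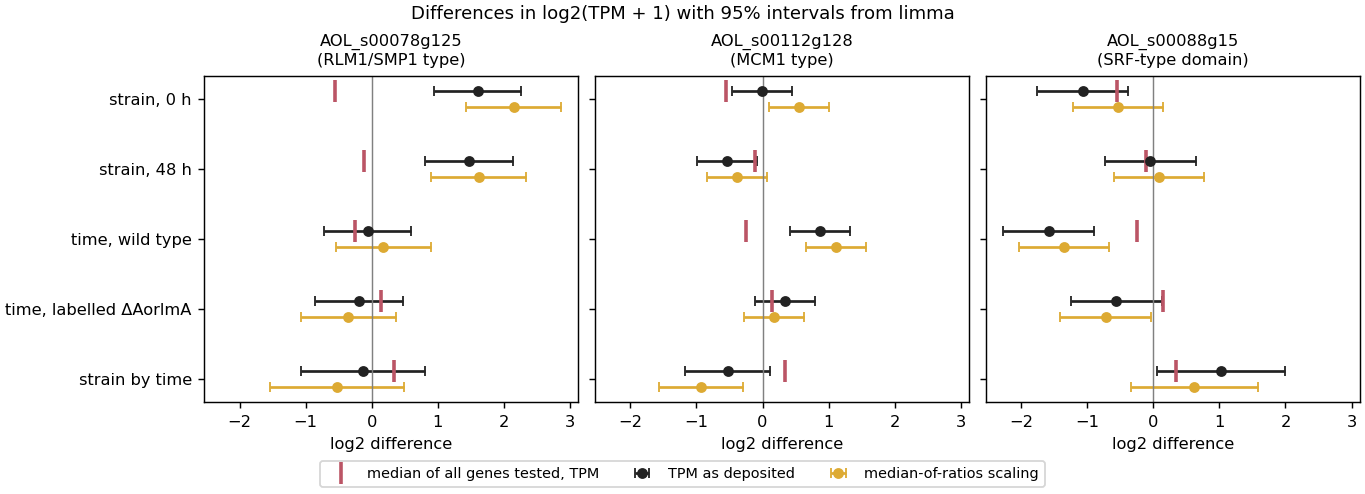
Differences in log2(TPM + 1) of the 3 genes (horizontal axis) in the 5 comparisons (rows), with 95% intervals from limma, on TPM as deposited (black) and after median-of-ratios scaling (yellow); red ticks are the median of all 9355 genes tested on TPM. Strain differences are labelled ΔAorlmA minus wild type, time differences 48 h minus 0 h, and the interaction is the strain difference at 48 h minus that at 0 h. The intervals of the RLM1-type gene lie above 0 at both times for the strain (1.60 and 1.47), and those of the other genes lie clear of 0 for time in the wild type (0.87 and -1.59).

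Across the family, the members called at an adjusted p under 0.05 numbered 2 of 3 for the strain at 0 h, where 42.7% of all genes tested were called, 1 higher (8.87% of all genes) and 1 lower (33.8%). At 48 h it was 1 of 3, higher, against 23.9% of all genes in either direction and 9.20% higher. Over time in the wild type 2 of 3 were called, 1 up and 1 down, where 46.4% of all genes were called, 17.6% up and 28.7% down. In the labelled strain limma called 0 of 3 over time, against 21.5% of all genes (13.0% up and 8.52% down), and 0 of 3 had an unadjusted p under 0.05. For the interaction it was 0 of 3, against 4.43%, with 1 of 3 at an unadjusted p under 0.05, and median-of-ratios scaling called 0 of 3 in both. After median-of-ratios scaling 1 of 3 was called for the strain at 0 h, where 25.4% of all genes were. With 3 members these shares are a description. Against the distribution of all genes, the strain difference of the RLM1-type gene lay at percentile 95.1 at 0 h and 92.9 at 48 h, the wild-type rise of the MCM1-type gene at 81.2, and the wild-type fall of AOL_s00088g15 at 13.9.

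The members did not move together. Over the 12 libraries, Pearson's r on log2(TPM + 1) was -0.37 between the RLM1-type and the MCM1-type gene, -0.31 between the RLM1-type gene and AOL_s00088g15, and -0.53 between the MCM1-type gene and AOL_s00088g15; the libraries share groups and scaling, so these are descriptions. The balance of the 2 larger members can be read within a library, where scaling cancels. The wild type had 5.24, 4.53 and 6.03 times as much TPM of the MCM1-type as of the RLM1-type gene at 0 h, and 9.57, 8.19 and 12.92 times at 48 h. In the labelled strain the ratio was 2.72, 1.66 and 1.07 at 0 h and 2.68, 2.24 and 2.46 at 48 h. Every labelled library was below every wild-type library, and the wild-type ratio was higher at 48 h than at 0 h in all libraries, while the labelled groups overlapped between times. The MCM1-type gene was thus the more abundant of the pair in all 12 libraries.

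**Figure D3:**
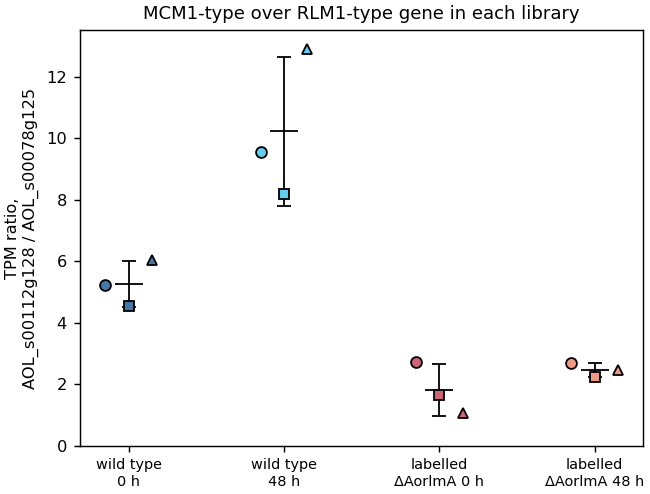
Ratio of the TPM of the MCM1-type gene AOL_s00112g128 to that of the RLM1-type gene AOL_s00078g125 in each library, by group, on a linear axis from 0; symbols mark the first, the second and the third library and bars the mean and SD (n = 3). Wild-type libraries lie at 4.53 and above, and labelled libraries at 2.72 and below.

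Of the 4 genes next to the RLM1-type gene in gene order, 3 were lower in the labelled strain at 48 h, where 14.7% of all genes were. At 0 h 1 was higher and 1 lower, against 8.87% and 33.8% of all genes. In the RefSeq gene order AOL_s00078g123 (a DASH complex Dad2 domain, known from kinetochores) and AOL_s00078g124 (ribosome recycling factor) precede it, and AOL_s00078g126 (an RNase P subunit) and AOL_s00078g127 (Nop14-like, a nucleolar protein of ribosome assembly) follow. At 48 h the direct neighbours in gene order were both lower in the labelled strain. AOL_s00078g124 had 128 ± 15.3 TPM in wild-type libraries and 55.4 ± 26.9 TPM in the labelled strain (SD, n = 3, log2 difference -1.28, limma adjusted p = 0.0161). AOL_s00078g126 had 110 ± 9.16 and 42.3 ± 23.2 TPM (-1.47, adjusted p = 0.0123). AOL_s00078g123 was lower as well at 48 h (-1.37, adjusted p = 0.0122), and AOL_s00078g127 did not pass (-0.71, adjusted p = 0.149). The call of AOL_s00078g126 ended without the second (adjusted p up to 0.0619 over all settings tried) or the third labelled library of 48 h, that of AOL_s00078g123 without these or the second wild-type library (up to 0.0555), and that of AOL_s00078g124 without these or the second or the third wild-type library (up to 0.0777).

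At 0 h, AOL_s00078g124 was lower (93.1 ± 29.3 against 41.5 ± 0.826 TPM, log2 difference -1.10, limma adjusted p = 0.0162), which ended once values were scaled by median of ratios (-0.56, adjusted p = 0.169) or the third wild-type library was dropped. AOL_s00078g127 was higher (8.81 ± 0.873 against 22.2 ± 7.17 TPM, 1.19, adjusted p = 0.0172), which ended without the second wild-type or the third labelled library of 0 h (adjusted p up to 0.0577). AOL_s00078g123 and AOL_s00078g126 did not pass at 0 h (adjusted p = 0.0589 and 0.0564). The RLM1-type gene was the only gene of the 5 called higher at both times.

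**Figure D4:**
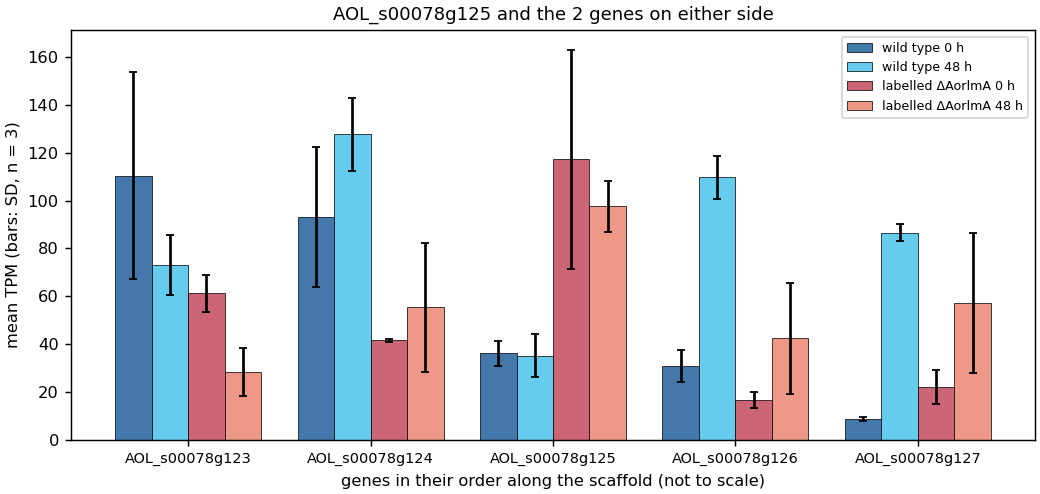
Mean TPM (bars; error bars are the SD, n = 3) of the RLM1-type gene AOL_s00078g125 and the 2 genes on either side, in gene order and not to scale, for the 4 groups on a linear axis from 0. The middle gene is higher in both labelled groups (117 and 97.6 TPM) than in both wild-type groups (36.2 and 35.1 TPM), while its direct neighbours are lower there at 48 h.

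Around the MCM1-type gene, the gene that precedes it, AOL_s00112g127 (a Nup53 RNA recognition motif, of nuclear pore proteins), rose over time in the wild type too, from 14.02 to 45.7 TPM (1.67, limma adjusted p = 0.0182), which ended without the first or the second wild-type library of 0 h or the third of 48 h (adjusted p up to 0.0598). On its other side AOL_s00112g129 (an ankyrin repeat and BTB protein) was lower in the labelled strain at 0 h (34.0 against 14.6 TPM, -1.18, adjusted p = 0.004). It fell over time in the wild type, to 20.0 TPM (-0.74, adjusted p = 0.0248), a call kept in 16 of 23 other settings and lost after median-of-ratios scaling (-0.50, adjusted p = 0.0648). AOL_s00112g126, with no annotation, and AOL_s00112g130 (a zinc cluster protein) had wild-type means of 56.5 and 54.5 TPM before induction, and 90.96 and 60.9 TPM at 48 h, differences that did not pass. After median-of-ratios scaling that of AOL_s00112g126 passed (0.92, adjusted p = 0.0437). This gene was also lower in the labelled strain at 0 h (-1.06, adjusted p = 0.04), a call kept in only 11 of 23 other settings. Beside AOL_s00088g15, the ferric reductase gene AOL_s00088g16 fell over time in the wild type (11.4 to 3.29 TPM, -1.52, adjusted p = 0.0045), as did the unannotated AOL_s00088g13 (3.89 to 1.82 TPM, -0.81, adjusted p = 0.0217), the former not under quantile normalization (adjusted p = 0.0578). The call of AOL_s00088g13 ended with a pseudocount of 0.1, after median-of-ratios scaling, and without the second or the third wild-type library of 0 h or the first or the third of 48 h. AOL_s00088g14 and AOL_s00088g17 were below the filter.

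In yeast the cell wall integrity cascade stands upstream of Rlm1. Of 21 genes whose annotation names its parts, 19 were tested; annotation names were matched by keyword, so some members may do something else. In the labelled strain at 0 h, 1 was higher and 4 were lower (all genes 8.87% and 33.8%), with a median of -0.28 against -0.556 for all genes, and 3 and 1 after median-of-ratios scaling. At 48 h 2 were higher and 0 lower (all genes 9.20% and 14.7%). Limma at an unadjusted p under 0.05 gave 3 and 2, and median-of-ratios scaling 2 and 0. Over time 5 rose and 3 fell in the wild type (all genes 17.6% and 28.7%), and 6 rose and 3 fell in the labelled strain (13.0% and 8.52%). The counts that rose rest on single libraries. Leaving out any 1 of the 6 wild-type libraries took the 5 to between 1 (the second of 0 h) and 3. The 6 became 10 without both first labelled libraries or without that of 0 h alone, 2 without the second or the third labelled library of 0 h, 3 without the second of 48 h, and 1 with only the groups compared in the fit. At 0 h without both first labelled libraries, 2 were higher and 8 lower, and at 48 h the 2 higher became 0 without the second or the third library of either strain at that time.

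The kinase that acts on Rlm1 in yeast had its highest level in the uninduced wild type. The SLT2-type MAP kinase AOL_s00173g235 had 218.71, 229.69 and 284.94 TPM there and 103.48, 134.4 and 92.31 TPM in the labelled strain at 0 h, without overlap. At 48 h it had 111.46, 80.92 and 92.71 TPM in wild-type libraries and 67.06, 58.1 and 74.65 TPM in the labelled strain, again without overlap. It fell over time in the wild type (-1.36, SE 0.24, limma adjusted p = 0.000702). At 0 h it was lower in the labelled strain (-1.15, adjusted p = 0.00397), which missed the threshold after median-of-ratios scaling (-0.60, adjusted p = 0.0541), and at 48 h the difference did not pass (-0.50, adjusted p = 0.133). Its fall in the labelled strain was -0.71 (adjusted p = 0.0496), a call kept in only 7 of 23 other settings.

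In the middle of the cascade 4 kinase genes did not pass the test, although other genes listed there did. Protein kinase C is annotated on the adjacent gene models AOL_s00006g6 (48.0 to 60.6 TPM as group means) and AOL_s00006g7 (25.3 to 32.0 TPM). The BCK1-type kinase AOL_s00054g475 had group means of 16.01 to 19.4 TPM, and the MKK-type kinase AOL_s00076g699 44.0 to 93.1 TPM. None of these 4 passed limma in any of the 4 pairwise comparisons, with adjusted p from 0.0567 to 0.986. A further gene with the MKK entry in KEGG, AOL_s00176g88, matches the spindle checkpoint kinase Ipl1 in Swiss-Prot. It fell over time in both strains (wild type -1.45, adjusted p = 0.0107; labelled strain -1.73, adjusted p = 0.0127), the former not without the third wild-type library of 48 h (adjusted p = 0.0536).

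Among the named ends of the cascade, the tyrosine phosphatase AOL_s00043g69, whose yeast relatives Ptp2 and Ptp3 switch MAP kinases off, was higher in the labelled strain at both times, as the RLM1-type gene was. It had 17.74, 18.77 and 14.69 TPM in uninduced wild-type libraries and 41.54, 37.85 and 99.73 TPM in the labelled strain (1.61, limma adjusted p = 0.013), and at 48 h 30.04, 21.56 and 9.4 against 39.16, 68.88 and 61.27 TPM (1.53, adjusted p = 0.0276). The strains did not overlap at either time, but the first call ended without the third library of either strain at 0 h and the second without the second or the third library of either strain at 48 h (adjusted p up to 0.0574 and 0.109). The WSC-annotated gene AOL_s00215g752, which carries a CFEM domain of fungal surface proteins, was lower in the labelled strain at 0 h (79.7 ± 12.3 against 19.8 ± 5.73 TPM, SD, n = 3; -1.99, adjusted p = 0.000869) and fell over time in the wild type (-2.75, adjusted p = 3.23e-05). It fell over time in the labelled strain too, from 19.8 to 7.79 TPM (-1.21), a call kept in 21 of 23 other settings. AOL_s00075g5, which matches the wall protein Ecm33, rose over time in the wild type from 4.82 to 38.8 TPM (2.75, adjusted p = 0.000185) and in the labelled strain from 10.7 to 45.4 TPM (2.01, adjusted p = 0.00606).

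Wall-building families that Rlm1 is known to raise in yeast, or relatives of them, were more often higher than lower in the labelled strain at 0 h. Of 16 genes (1 glucan synthase, glucanosyltransferases, CRH transglycosylases, chitin synthases), 8 were higher and 2 lower, against 8.87% and 33.8% of all genes, with a median of 0.86 against -0.556. After median-of-ratios scaling the counts were 9 and 0, and without both first labelled libraries 8 and 3. At 48 h 2 were higher and 1 lower (all genes 9.20% and 14.7%), and leaving out a single library took the 2 to between 0 (without the third labelled library of 48 h) and 4 (without the third wild-type library of 0 h). Over time 4 rose and 1 fell in the wild type (17.6% and 28.7%), where 2 rose without the third library of 0 h or the second of 48 h. Over time the labelled strain had 1 that rose and 2 that fell (13.0% and 8.52%).

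The glucan synthase gene AOL_s00054g491 (FKS1), whose product makes the beta-1,3-glucan of the wall, had 77.63, 69.21 and 67.81 TPM in the wild type at 0 h. There it rose to 255.71, 250.05 and 192.32 TPM at 48 h (1.68, SE 0.25, limma adjusted p = 0.000247). The labelled strain was already at 512.49, 284.54 and 393.71 TPM at 0 h and had 336.61, 254.73 and 289.74 TPM at 48 h (-0.40, adjusted p = 0.26). Of the 7 chitin synthase genes, 5 were higher in the labelled strain at 0 h, by 0.94 to 2.35 (adjusted p up to 0.0102), and all 5 calls were kept in all 23 other settings. Among them AOL_s00210g143 was also higher at 48 h (5.20 ± 0.68 against 22.2 ± 9.40 TPM, SD, n = 3; 1.82, adjusted p = 0.00991), a call lost without the third labelled library of 48 h (adjusted p = 0.0525). So was AOL_s00078g76 (0.90, limma adjusted p = 0.0354), a call kept in 17 of 23 other settings. The glucanosyltransferase AOL_s00054g226, of the Gel3 type, went the other way, with 98.8 ± 14.7 against 24.9 ± 9.32 TPM at 48 h (-2.001, adjusted p = 0.00716).

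Of the yeast partners and target families of Mcm1, 15 of 16 genes were tested, and more were lower than higher in the labelled strain on TPM. At 0 h 0 were higher and 8 lower (all genes 8.87% and 33.8%; unadjusted p under 0.05: 0 and 8), with a median of -1.03 against -0.556 for all genes, but only 1 and 1 after median-of-ratios scaling. At 48 h 0 were higher and 6 lower (all genes 9.20% and 14.7%; unadjusted 0 and 8), with a median of -1.20 against -0.111, and 0 and 5 after that scaling. Both lower counts rest on single libraries: the 8 became 1 without the third wild-type and 3 without the third labelled library of 0 h, and the 6 became 3 without the third labelled library of 48 h. Without both first labelled libraries they were 14 and 10. In the wild type over time 4 rose and 1 fell (all genes 17.6% and 28.7%; 7 and 1 after scaling). The 4 became 2 without the first or the second wild-type library of 0 h, and 10 without both first labelled libraries, which changes only the shared estimate of spread. Over time within the labelled strain limma called 0 up and 1 down (13.0% and 8.52%; unadjusted 2 and 1), and 0 and 1 after scaling.

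The members that differed at 48 h were mostly subunits of the MCM helicase that licenses DNA replication: 5 of its 6 genes were lower. MCM3 (AOL_s00109g45) had 62.18, 60.25 and 60.09 TPM in induced wild-type libraries and 22.23, 4.92 and 6.24 TPM in the labelled strain (-2.63, limma adjusted p = 0.00535), the first labelled library being the nearest to the wild type. MCM5 (AOL_s00007g395) had 131 and 28.6 TPM as group means (-2.47, adjusted p = 0.00714) and MCM7 (AOL_s00054g769) 90.8 and 20.8 TPM (-2.29, adjusted p = 0.00632). These 3 were called in all 23 other settings. MCM6 (AOL_s00006g301) was lower by -2.03 (adjusted p = 0.0132), which ended without the second or the third labelled library of 48 h, and MCM2 (AOL_s00006g2) by -1.36 (adjusted p = 0.0464), which was kept in only 12 of 23 other settings. MCM4 (AOL_s00080g270) was not called between strains on TPM (adjusted p = 0.317 at 0 h and 0.51 at 48 h). After median-of-ratios scaling it was higher in the labelled strain at 0 h (0.85, limma adjusted p = 0.0281). MCM4 rose over time in the wild type (1.01, adjusted p = 0.00618).

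The genes for proteins that bind DNA beside Mcm1 in yeast showed no strain difference that passed in the fit of all 12 libraries. Without both first labelled libraries, 14 of the 15 tested genes of the list were lower at 0 h, which must include some of these. The STE12-type gene AOL_s00079g294, of the mating and filamentation response, had group means of 76.3 to 102.9 TPM. The forkhead gene AOL_s00076g697 and the homeobox gene AOL_s00075g18, a YOX1 relative that represses Mcm1 targets in yeast, had 33.1 and 23.9 TPM in wild-type libraries of 0 h and 63.9 and 47.5 TPM at 48 h, values that did not pass limma (adjusted p = 0.109 and 0.137). After median-of-ratios scaling the forkhead gene did pass (1.16, adjusted p = 0.0393) and AOL_s00075g18 did not (adjusted p = 0.0521). The inositol polyphosphate kinase AOL_s00006g55, known in yeast as Arg82 and as a stabiliser of Mcm1, fell over time in both strains, from 119 to 22.6 TPM in the wild type (-2.35, adjusted p = 0.000442) and from 46.7 to 15.97 TPM in the labelled strain (-1.36, adjusted p = 0.0269, kept in 18 of 23 other settings). At 0 h it was lower in the labelled strain (-1.46, adjusted p = 0.0107), though not after median-of-ratios scaling (-0.91, adjusted p = 0.0959) or without the third wild-type library of 0 h. The B-type cyclin AOL_s00083g407 was lower in the labelled strain at 0 h (8.93 against 2.65 TPM, -1.42, adjusted p = 0.00379). It was lower at 48 h too (7.47 against 2.72 TPM, -1.20, limma adjusted p = 0.0146), a call kept in 20 of 23 other settings.

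**Figure D5:**
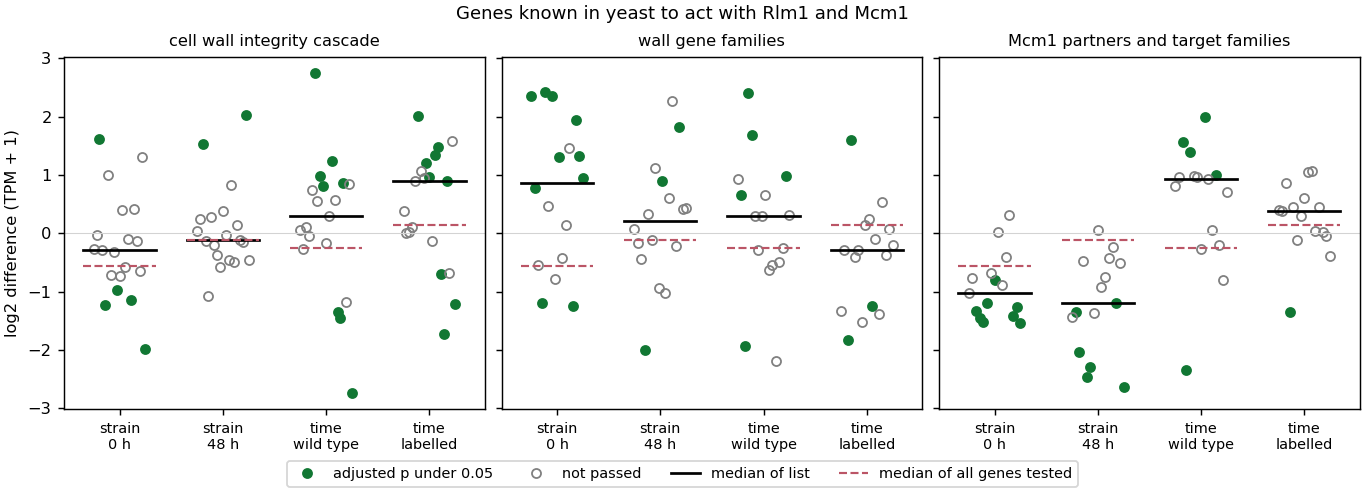
Difference in log2(TPM + 1) of every tested gene in the lists of the cell wall integrity cascade (19 genes), wall gene families (16) and Mcm1 partners and target families (15), for strain (labelled ΔAorlmA minus wild type) and time (48 h minus 0 h) comparisons; filled points passed limma at an adjusted p under 0.05, black lines are the list's median and dashed red lines the median of all genes tested. The wall families have a median of 0.86 at 0 h, and the Mcm1 list -1.20 at 48 h.

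Spore and hydrophobin genes, as signs of another cell form, were counted beside the MADS-box genes. Of 14 genes, 12 were tested; 7 were lower and 1 higher in the labelled strain at 0 h (all genes 33.8% and 8.87%), and at 48 h 2 were lower and 2 higher (14.7% and 9.20%). Over time limma called 4 down and 0 up in the wild type (28.7% and 17.6%; unadjusted 4 and 0) and 0 down and 2 up in the labelled strain (8.52% and 13.0%; unadjusted 2 and 2). Their summed level was 2219.9 to 3194.1 TPM in the wild type at 0 h, 626.9 to 1360.7 TPM at 48 h, 239.1 to 895.4 TPM in the labelled strain at 0 h and 292.3 to 2236.1 TPM at 48 h. The uninduced wild type had the highest sums, apart from the first labelled library of 48 h (2236.1 TPM), which reached into its range. The rodlet-type hydrophobin AOL_s00006g570 made up most of that sum in the wild type; without it the ranges were 311.1 to 477.9, 193.2 to 247.2, 198.9 to 676.3 and 164.0 to 245.9 TPM. The hydrophobin gene AOL_s00075g89 was below the filter and not tested. It was listed at 0.41, 0.25 and 0.12 TPM in the uninduced wild type and at 0 in every other library, values too low to be read as a difference. After median-of-ratios scaling 3 genes of the list were lower and 1 higher at 0 h, 1 was called down and 2 up over time in the labelled strain, and without both first labelled libraries 6 were lower at 48 h. The first labelled library of 48 h also had the highest level of the MCM1-type gene in its group. The part of spore genes in the results was not tested.

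The genes whose pattern over the 12 libraries was most like that of a member were picked from 6159 annotated genes with a mean of at least 5 TPM. For the RLM1-type gene they were AOL_s00173g370 (a Baeyer-Villiger monooxygenase, Pearson's r 0.944), AOL_s00173g133 (an aspartic endopeptidase, 0.935) and AOL_s00004g368 (an adenosine deaminase, 0.924), and the most opposed were AOL_s00081g86 (a histidine phosphatase domain, -0.964) and AOL_s00083g21 (a GRASP domain, -0.954). The aspartic endopeptidase gene had 39.3 and 25.8 TPM in wild-type libraries of 0 h and 48 h, and 245.0 and 157 TPM in the labelled strain.

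For the MCM1-type gene the most alike were AOL_s00079g236 (an Hsp70 chaperone, 0.982), AOL_s00083g296 (IMP3 of the ribosome-building U3 particle, 0.979) and AOL_s00054g791 (the ribosome assembly protein RSA4, 0.974). The most opposed were AOL_s00075g166 (a sterol reductase, -0.979) and AOL_s00215g413 (DDI1, an aspartyl protease fold protein, -0.977). RSA4 rose from 25.1 to 155 TPM in the wild type and was at 19.6 and 65.8 TPM in the labelled strain.

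For AOL_s00088g15 they were AOL_s00078g81 (allophanate hydrolase, of urea use, 0.974), AOL_s00193g55 (a V-ATPase subunit, 0.961) and AOL_s00097g271 (mitochondrial glycerol-3-phosphate dehydrogenase, 0.958), with AOL_s00054g15 (a vacuolar amino acid transporter, -0.938) and AOL_s00215g187 (a CRAL-TRIO lipid-binding domain, -0.934) the most opposed. The dehydrogenase gene had 131.6 TPM in the uninduced wild type and 14.3 to 29.9 TPM in the other groups. These correlations are descriptions over libraries that share groups, and the genes named turn over with the measure: of the 5 per member, Spearman's rank correlation kept 1, 0 and 1, and median-of-ratios scaling kept 2, 0 and 1.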

How the data were processed

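The authors deposited expression per gene as TPM, which were tested, and as FPKM, with annotations; per the file headers a further table gives counts of raw and clean reads. The table named for counts per gene held correlations between libraries, so the count test first planned was replaced by the fallback for normalised values. The aligner, the quantifier and the build of the genome were not given in the sources used here. Group means (8 columns) were not used. All gene names matched RefSeq locus tags (11479), used for gene order only.

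A limma fit (3.58.1, R 4.3.3; eBayes with trend, two-sided, Benjamini-Hochberg over 9355 genes) on log2(TPM + 1) used 12 libraries and a mean per group; it was tested on simulated data. Fold changes understate those of low genes. Exact permutations and correlations used scipy 1.17.1 and pandas 2.3.3. Fragments were estimated from the steps of low FPKM (100% within 0.15 of a whole number); counting errors cover counting only.

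Members, lists, tests and the fit without both first labelled libraries were chosen with earlier results of these data known. Named genes were the members, 2 neighbours on either side, the 3 most and 2 least alike, the core of the wall integrity cascade and, per list and comparison, the called gene with the lowest adjusted p in either direction; the other list genes named were chosen after their values were seen, as was the use of every setting on list counts and list genes. Some genes of the cascade are counted in its list but not reported here by name. Settings varied were the pseudocount, the filter, scaling, unit, block, libraries and the fit.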

Additional observations from a re-analysis of the deposited data

Results flagged for a closer look

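No MADS-box gene had a strain difference that changed between 0 h and 48 h past the threshold, but 4 genes named beside them did, each with its interaction given as the strain difference at 48 h minus that at 0 h (limma, adjusted over all genes tested). The glucan synthase gene AOL_s00054g491 had -2.08 (SE 0.36, adjusted p = 0.0195), kept in 19 of 22 other settings. AOL_s00078g127, which lies 2 genes from the RLM1-type gene, had -1.90 (SE 0.49, adjusted p = 0.0487), kept in 9 of 22 other settings. The allophanate hydrolase gene AOL_s00078g81, the most like AOL_s00088g15 in its pattern, had 2.40 (SE 0.57, adjusted p = 0.0371), and 1.97 (adjusted p = 0.0901) after median-of-ratios scaling. Its strain difference was -2.36 at 0 h and 0.04 at 48 h, where its means were only 0.647 TPM (wild type) and 0.707 TPM (labelled strain). This gene was picked by its pattern over the same libraries, so its interaction is a description. The WSC-annotated AOL_s00215g752 had 1.53 (SE 0.40, adjusted p = 0.0489), kept in 6 of 22 other settings.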

How the results depend on the processing

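Over 23 other settings of a pairwise comparison (22 of the interaction), the strain calls of the RLM1-type gene AOL_s00078g125 and both wild-type time calls kept direction and threshold; of 342 values of the members 318 did. Under median-of-ratios scaling AOL_s00112g128 turned to 0.55 at 0 h and 0.082 over both times, AOL_s00088g15 to 0.085 at 48 h and AOL_s00078g125 to 0.171 over time in the wild type; quantile normalization gave 0.039, 0.044 and 0.02 for the same single-time results. The 0 h call of AOL_s00088g15 was lost at -0.538 and -0.632 under these scalings. The 48 h strain difference of AOL_s00112g128 passed with no filter (-0.533, adjusted p = 0.0334), under quantile normalization (-0.642) and without both first labelled libraries (-0.676). The cause was not tested.

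Leaving out each library in turn gave -0.035 to 0.046 for AOL_s00112g128 and -1.335 to -0.912 for AOL_s00088g15 between strains at 0 h, and -0.676 to -0.457 and -0.176 to 0.132 at 48 h. For AOL_s00078g125 it gave -0.252 to 0.084 over time in the wild type, -0.499 to 0.087 in the labelled strain and -0.437 to 0.149 for the interaction.

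The count of genes called at 0 h was 3990, 2374 under median-of-ratios scaling and 2096 or more without a single library. At 48 h it was 2234, 491 to 1225 without 1 of 5 libraries and 4001 without both first labelled ones. In the labelled strain over time it was 2009, 438 with only the groups compared, 3420 without both, and 720 to 3442 without single libraries. The interaction had 414, 260 with a pseudocount of 0.1, 245 at a mean of at least 5 TPM, 1349 without both and 17 to 876 without single libraries.

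Samples that share a replicate number had low correlations of their deviations (-0.316 to 0.188, over 0.1 in 5 of 18 pairs). With 3 libraries in a group this cannot decide whether the numbers pair them, and the labels do not say. With the replicate block the calls numbered 3789, 2055, 4241, 1766 and 348 in the 5 comparisons, and no call of a member changed. Depth limits AOL_s00088g15 the most, with as few as 43 fragments.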
